A study of Rattus norvegicus with 12 samples.

Results

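Whole blood transcripts were compared between 2 inbred rat strains, Wistar-Kyoto (WKY) and F344, after chronic restraint stress (CRS). The comparison held the 3 WKY and 3 F344 libraries labelled as restrained, 6 of the 12 libraries of the series. All rats were adult males aged 70 to 90 days that had undergone contextual fear conditioning, followed by 4 weeks in the home cage. For the rats compared here, restraint in breathable bags followed, 2 hours per day for 2 weeks. A second conditioning preceded decapitation by 24 hours, and blood went straight into RNA-stabilising PAXgene tubes. The remaining 6 libraries, 3 of each strain, came from rats left undisturbed and conditioned on the same schedule; they served as the unstressed strain comparison. Whether every library came from a different rat is not stated in the labels. The p-values therefore refer to variation among libraries, which may be partly technical. Except in the exact permutation tests, that spread was estimated within groups over all 12 libraries, the unstressed ones included.

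Type I interferons are cytokines that signal through a cell surface receptor and STAT proteins to switch on a large set of antiviral genes. The assembled factor binds a DNA element named the interferon-stimulated response element (ISRE), and the factor encoded by Irf7 amplifies the response. In blood these genes are expressed in leukocytes, above all in monocytes, and many are also kept at a low resting level. WKY rats are widely used as a stress-reactive strain and F344 rats as a comparison strain. Whole blood also carries reticulocytes, the last red cell precursors that still hold RNA, together with platelets, lymphocytes and granulocytes.

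The 6 libraries held 2805257 to 3846263 counts assigned to genes. The 3 most abundant features took 89.1% to 91.8% of them, which left 281942 to 419789 counts in F344 and 232721 to 319116 in WKY for all other genes. One read added 0.202 to 0.436 CPM (counts scaled to a common total and between libraries by TMM), so levels of a few CPM rested on few reads. The share of the 3 features was 1.52 percentage points higher in WKY (two-sided exact permutation p = 0.2) and the share of ambiguous reads 1.45 points lower (a difference of -1.45, exact p = 0.4), where 3 against 3 cannot go below 0.1. Red cell genes such as Hbb and Alas2, and leukocyte genes such as Cd74, were detected in every library, as whole blood requires. In a principal component analysis of all 12 libraries, the third component set stressed WKY replicate 2 (28.8) apart from the rest (-12.3 to 10.4), and values without it are given where they change a call. Replicates of WKY differed more from each other than those of F344, with a chi-square per degree of freedom of 4.41 to 5.74 against 2.08 to 3.45.

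Of 2781 genes tested, 36 differed between the strains after restraint (1.29%, edgeR quasi-likelihood test, Benjamini-Hochberg adjusted p under 0.05). WKY was higher for 18 (0.647%) and lower for 18 (0.647%). The log2 differences, given throughout as WKY minus F344, ran from 1.19 to 3.54 among the higher genes (median 1.74) and from -6.98 to -1.25 among the lower ones (median -1.90). Each SE given below is the absolute log2 difference divided by the square root of the quasi-likelihood F statistic. It restates the edgeR test and is not a separate measure of precision, above all where counts are near 0. Across all tested genes 1400 were positive and 1381 negative, with a median of 0.01. In all 36 called genes the 3 WKY libraries lay outside the range of the 3 F344 libraries, against 544 (19.6%) of all tested genes. The 36 were called from these same libraries, so this separation is a description and adds no support. DESeq2 called 35 and limma-voom 40. The count depended on single libraries: it was 18, 19 and 20 without stressed F344 replicate 1, 2 or 3, and 27, 29 and 40 without stressed WKY replicate 1, 2 or 3. None of the 36 changed sign in any alternative run, and 13 passed whichever of the 6 libraries was left out.

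**Figure D1:**
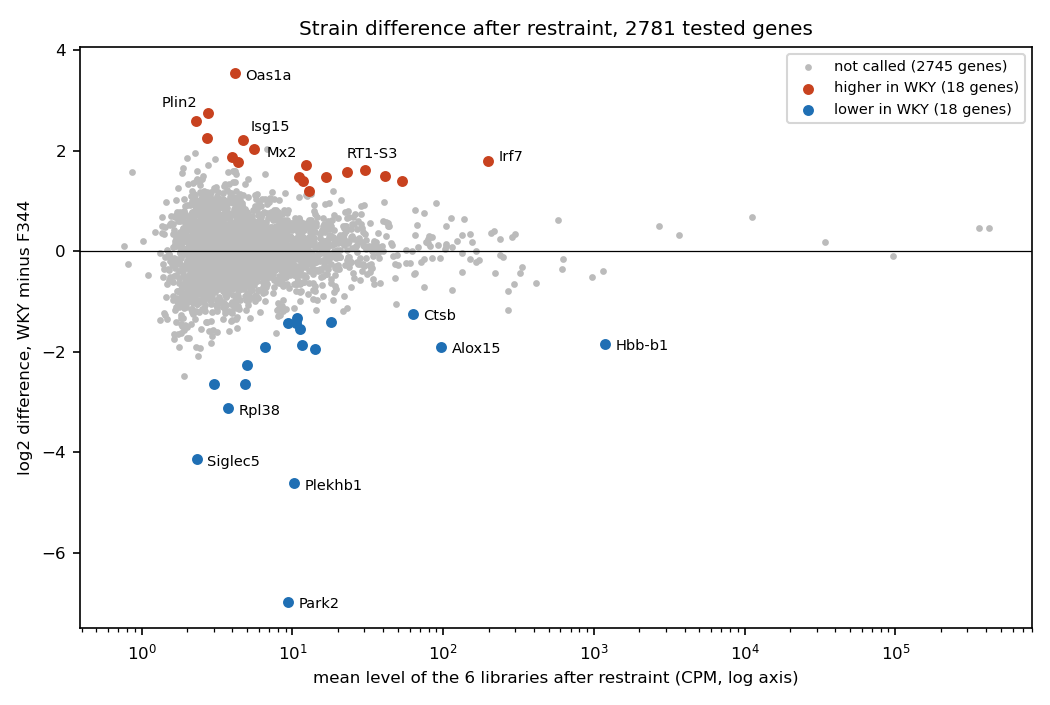
Log2 difference between strains after restraint (WKY minus F344) against mean level in CPM on a log axis, 1 point per tested gene. The 18 genes called higher reach 3.54 (Oas1a), and the 18 called lower reach -6.98 (Park2), with Irf7, Ctsb, Alox15 and Hbb-b1 the best measured of those labelled.

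Of the gene lists used, interferon-stimulated genes held the most genes called higher. Of 44 tested members of this list, 37 were positive and 7 negative after restraint, with a median of 0.68 against 0.01 for all genes. Among them 8 were called higher and 0 lower, where 18 (0.647%) of all tested genes were called higher: Oas1a, Rtp4, Isg15, Mx2, Irf7, Lgals3bp, Slfn3 and Mx1. The groups did not overlap for 21 of the 44 members, 20 of them higher in WKY, against 19.6% of all tested genes in either direction. Summed over all 63 genes of the list found in the files, the level was 512 to 530 CPM in F344 and 919 to 1044 CPM in WKY. Irf7 and Rsad2 made up much of these sums, and without both they were 240 to 253 CPM in F344 and 405 to 461 CPM in WKY. The summed levels of the strains therefore stayed apart without these 2 genes. In whole blood, fewer cells of a type and less RNA per cell cannot be told apart, which holds for every level given here.

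Promoters are shown for the 5 genes called higher whose window holds an ISRE, to let the element be seen beside the levels. Each window runs from 250 bases before to 50 bases after the gene start in RefSeq, assembly GRCr8, written 5′ to 3′ on the strand of the gene; capitals mark ISRE matches, searched as 2 copies of GAAA with 2 bases of any kind between them, on either strand. The Irf7 window (chr1:205799974-205800273, minus strand) holds its match at position -69 from the gene start. That of Oas1a (chr12:41330216-41330515, plus strand) holds 2 matches that overlap each other. Lgals3bp (chr10:104127799-104128098, minus strand) has a match at -50, RT1-S3 (chr20:2675278-2675577, plus strand) at -112 and Cybb (chrX:16065016-16065315, minus strand) at -52.
Irf7: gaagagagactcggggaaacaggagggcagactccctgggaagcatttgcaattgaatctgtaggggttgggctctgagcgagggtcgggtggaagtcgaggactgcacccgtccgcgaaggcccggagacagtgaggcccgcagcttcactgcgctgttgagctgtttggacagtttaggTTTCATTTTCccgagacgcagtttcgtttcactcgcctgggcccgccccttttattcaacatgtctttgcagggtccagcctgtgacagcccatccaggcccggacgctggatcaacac
Oas1a: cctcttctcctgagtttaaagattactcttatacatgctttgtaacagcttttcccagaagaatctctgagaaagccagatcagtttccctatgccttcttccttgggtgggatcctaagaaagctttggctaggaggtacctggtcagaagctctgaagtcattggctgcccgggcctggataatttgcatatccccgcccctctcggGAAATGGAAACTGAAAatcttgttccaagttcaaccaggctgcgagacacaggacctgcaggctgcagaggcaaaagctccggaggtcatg
Lgals3bp: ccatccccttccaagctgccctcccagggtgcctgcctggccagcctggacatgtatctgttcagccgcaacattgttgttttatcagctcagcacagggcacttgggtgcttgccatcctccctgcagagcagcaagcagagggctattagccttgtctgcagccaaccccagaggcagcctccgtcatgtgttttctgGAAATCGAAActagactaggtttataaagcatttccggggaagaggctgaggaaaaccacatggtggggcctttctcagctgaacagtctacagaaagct
RT1-S3: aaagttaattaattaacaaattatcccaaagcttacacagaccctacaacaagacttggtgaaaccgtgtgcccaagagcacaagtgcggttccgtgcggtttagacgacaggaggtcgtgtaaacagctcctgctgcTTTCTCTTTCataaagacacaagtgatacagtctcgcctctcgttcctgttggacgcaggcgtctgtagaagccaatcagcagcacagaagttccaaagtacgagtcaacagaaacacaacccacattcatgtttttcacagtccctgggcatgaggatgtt
Cybb: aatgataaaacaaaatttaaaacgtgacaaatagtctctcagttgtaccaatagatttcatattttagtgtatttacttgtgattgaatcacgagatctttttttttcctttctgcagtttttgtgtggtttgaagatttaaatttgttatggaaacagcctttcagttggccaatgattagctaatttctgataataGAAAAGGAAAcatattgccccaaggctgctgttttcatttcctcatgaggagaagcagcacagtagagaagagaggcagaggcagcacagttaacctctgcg

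The table of promoters held 26 of the 36 called genes. An ISRE match lay in 5 of the 14 windows of genes called higher (35.7%) and in 1 of the 12 of genes called lower (8.33%), that of Rpl38. Among the tested interferon-stimulated genes it lay in 19 of 33 windows (57.6%). Among the 8 of them called higher it lay in 3 of 5 windows (60%). The windows of Mx1 and Slfn3 held no match, and Mx2, Isg15 and Rtp4 had no window to search. Over all tested genes the share was 94 of 2257 (4.16%), and it was 3.92% over all 33469 windows listed. The gamma-activated site (GAS), a second interferon element, searched as TTCNNNGAA on both strands, lay in 2 of 14 higher (14.3%), 0 of 12 lower and 6.07% of all tested windows. No ISRE match overlapped a GAS match in a called gene. A match describes these letters only, and binding was not measured.

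Irf7 had the most counts of the called interferon genes. Its level was 77.7, 87.0 and 101 CPM in the F344 libraries and 309, 363 and 252 CPM in the WKY libraries. The lowest WKY library stood well above the highest F344 library, and the log2 difference was 1.80 (SE 0.286, edgeR adjusted p = 0.000197, n = 3 per group). It passed in every leave-out and every other alternative.

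Oas1a encodes an oligoadenylate synthetase, which senses double-stranded RNA and activates RNA decay. It stood at 0.807, 0.683 and 0.406 CPM in F344 and at 9.17, 7.85 and 5.91 CPM in WKY, so that its F344 level rested on 2 to 4 counts per library. The log2 difference of 3.54 was the largest of the genes called higher (SE 0.485, edgeR adjusted p = 1.21e-05), and the call held in all 6 leave-outs.

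The GTPases Mx1 and Mx2, which block viral replication, are neighbours in the genome with 1 gene between them. Mx2 measured 1.82, 1.37 and 3.04 CPM in F344 against 9.17, 9.60 and 8.21 CPM in WKY (edgeR: log2 difference 2.04 with SE 0.376, adjusted p = 0.00120). Mx1 measured 6.26, 8.53 and 8.73 CPM against 18.6, 16.1 and 18.7 CPM (log2 1.19, SE 0.315, edgeR adjusted p = 0.0431). Both pairs of groups were separate. The Mx2 call held throughout, whereas that of Mx1 ended without any 1 of the 6 libraries (stressed F344 replicate 1, 2 or 3, or stressed WKY replicate 1, 2 or 3; 0.0617 to 0.301 after adjustment) and with no filter on low counts (0.304).

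Isg15, a ubiquitin-like protein joined to other proteins in antiviral defence, was at 2.62, 1.37 and 0.812 CPM in F344 and 8.92, 8.72 and 5.59 CPM in WKY (edgeR log2 difference 2.22, SE 0.463, adjusted p = 0.00550). Rtp4, an interferon-induced chaperone of receptors, was at 0.807, 0.683 and 0.406 CPM against 3.06, 2.62 and 6.24 CPM (log2 2.60, SE 0.627, edgeR adjusted p = 0.0205). Both were low in F344 and higher in every WKY library. Slfn3, of the Schlafen family, was at 26.4, 34.5 and 28.2 CPM against 87.9, 54.5 and 89.7 CPM (log2 1.39, SE 0.290, edgeR adjusted p = 0.00550). Lgals3bp, a secreted glycoprotein that binds galectins, was at 5.45, 6.14 and 5.48 CPM in F344 and at 19.1, 29.7 and 7.89 CPM in WKY (edgeR: log2 difference 1.71 with SE 0.380, adjusted p = 0.00972). Its F344 libraries lay close together and its WKY libraries were spread widely. Single libraries ended these calls: stressed F344 replicate 3 for Isg15 (adjusted p = 0.0866), stressed F344 replicate 1 or 3 for Slfn3 (0.0578 to 0.0691), stressed F344 replicate 1 or 3 or stressed WKY replicate 2 for Lgals3bp (0.0660 to 0.143), and any stressed F344 replicate (1, 2 or 3) or stressed WKY replicate 3 for Rtp4 (0.0660 to 0.211). Rtp4 also missed the threshold in limma-voom (0.0657).

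**Figure D2:**
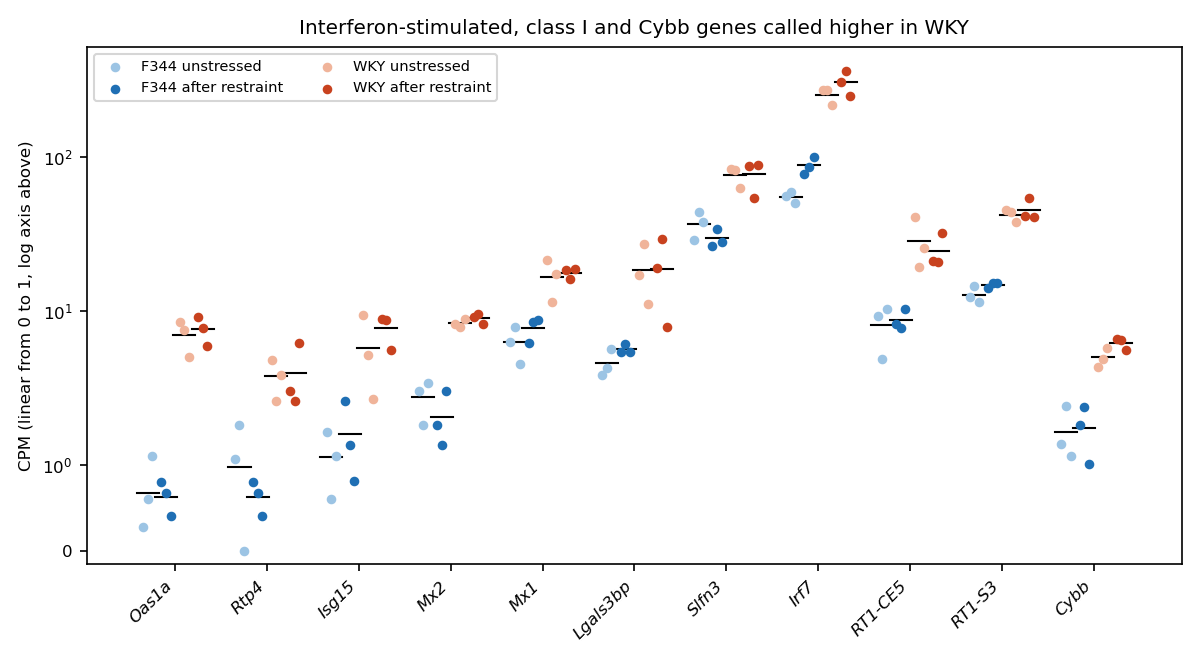
Level in CPM (linear from 0 to 1, log above) of the 8 interferon-stimulated genes, 2 class I genes and Cybb called higher in WKY, 1 point per library and a bar at each group's mean. After restraint the 3 WKY points lie above the 3 F344 points for every gene, for example 252 to 363 against 77.7 to 101 CPM for Irf7.

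Other interferon-stimulated genes were separate between the strains without passing the test. Ifi27 averaged 3.17 CPM in F344 and 10.1 in WKY (log2 1.55, edgeR adjusted p = 0.0652), and Ifit3, which binds viral RNA, 8.35 and 18.3 CPM (log2 1.15, adjusted p = 0.134). Other members lay nearer 0 or were negative. Rsad2, the antiviral enzyme viperin, which had many counts in both strains, averaged 183 and 235 CPM (log2 0.36, adjusted p = 0.725). The nucleic acid sensor Zbp1 had the most negative value, at 3.80 and 1.91 CPM (log2 -0.97, adjusted p = 0.531), and Trim34, Oasl2 and Trim25 were at log2 -0.26, -0.20 and -0.17. Among the 19 tested interferon regulatory factors and sensors, 11 were positive, with a median of 0.08. Irf7 alone was called, where 0.647% of all tested genes were called higher. Irf9, a component of the factor that binds the ISRE, was at log2 1.02 (adjusted p = 0.349) and Irf5 at 0.99 (0.308). Irf3, a partner of Irf7 in the first wave of the response, was at log2 -1.07 (0.412), Irf8 at -0.81 (0.537) and Myd88 at -0.76 (0.549). None of these passed.

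MHC class I molecules present peptides to cytotoxic T cells and are themselves raised by interferon. Of 20 tested members of the class I and peptide loading list, 12 were positive, with a median of 0.39. Among them 2 were called higher, where 0.647% of all tested genes were. RT1-S3 measured 14.1, 15.4 and 15.2 CPM in F344 and 41.8, 54.5 and 40.7 CPM in WKY (edgeR: log2 difference 1.61 with SE 0.280, adjusted p = 0.000632), a call that held in every leave-out. RT1-CE5 measured 8.28, 7.85 and 10.3 CPM against 21.1, 20.9 and 32.2 CPM (log2 1.48, SE 0.328, edgeR adjusted p = 0.00972). The strains did not overlap in either gene, but the RT1-CE5 call ended without stressed F344 replicate 1 or 2 or stressed WKY replicate 3 (0.0762 to 0.0855). Close copies had negative values that did not pass: RT1-CE4 averaged 5.77 and 1.86 CPM (log2 -1.58, adjusted p = 0.108) and RT1-CE16 5.87 and 2.1 CPM (log2 -1.38, 0.125). The RefSeq span of RT1-CE5 overlaps that of RT1-CE4 and other members, so reads can be split between them and single RT1-CE genes are uncertain. B2m, the light chain shared by class I molecules, was at log2 -0.14 (adjusted p = 0.910), and the peptide transporter genes Tap1 and Tap2 at 0.06 (0.971) and -1.14 (0.265).

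MHC class II molecules present peptides to helper T cells and are carried by B cells, monocytes and dendritic cells. All 6 tested members were negative after restraint, with a median of -0.96, and 0 were called. The sum over the 11 genes in the files was 63.2 to 73.1 CPM in F344 and 33.5 to 55.0 CPM in WKY, so that the groups were separate. RT1-Db1 measured 2.62, 5.80 and 3.45 CPM against 0.509, 0 and 2.30 CPM (log2 -1.94, edgeR adjusted p = 0.184). RT1-Ba measured 3.23, 6.49 and 7.51 CPM against 3.82, 0.436 and 2.30 CPM (log2 -1.24, 0.267), and the groups overlapped. Ciita, the master activator of class II transcription, was at log2 -0.87 (0.376), RT1-DMb at -1.06 (0.522) and Cd74, the invariant chain, at -0.57 (0.553). In unstressed rats the median of the same 6 genes was 0.20, with 4 positive. The test of the difference between the strain differences called 0 genes, these 6 included.

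The summed level of monocyte markers was higher in WKY, as was that of the interferon genes, and its part in that result was not tested. Of 10 tested monocyte markers 8 were positive, with a median of 0.83. Among them 1 was called higher, where 0.647% of all tested genes were. Their sum over 22 genes was 98.7 to 111 CPM in F344 and 156 to 201 CPM in WKY. The called gene was Cybb, the catalytic subunit of the phagocyte NADPH oxidase, with 1.82, 2.39 and 1.01 CPM in F344 and 6.62, 6.54 and 5.59 CPM in WKY (edgeR: log2 difference 1.88 with SE 0.426, adjusted p = 0.0114). Its groups were separate, and the call ended without stressed F344 replicate 1 or 3 or stressed WKY replicate 1 (0.0649 to 0.152) and with no filter on low counts (0.0895). Lyz2, a lysozyme and the best measured monocyte marker, measured 60.0, 56.3 and 67.6 CPM against 139, 95.1 and 122 CPM (log2 0.96, adjusted p = 0.0724). It made up much of the list's sums, at a mean of 61.3 of 104.5 CPM in F344 and 118.9 of 179.1 CPM in WKY. Mpeg1 (log2 1.14, adjusted p = 0.187) and Tyrobp (log2 1.14, 0.256) were also separate, whereas Csf1r, the receptor that monocytes depend on, was at log2 0.07. Cd14 had too few counts to be tested, 8 in F344 and 4 in WKY, as had Cx3cr1 with 29 and 11.

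T cell genes lay on the other side. Of 17 tested, 16 were negative and 1 positive, with a median of -0.52 and 0 called. Their sum over 29 genes was 107 to 115 CPM in F344 and 72.4 to 92.7 CPM in WKY. Cd3g, a chain of the T cell receptor complex, measured 1.82, 2.73 and 5.07 CPM against 1.27, 0.436 and 0.986 CPM (log2 -1.72, edgeR adjusted p = 0.265). Lef1 (log2 -1.08, 0.266), Cd27 (-0.77, 0.442) and Bcl11b (-0.88, 0.448) followed, and the exception was Cd4 (0.26, 0.866), which rat monocytes also carry. Il7r had 0 counts in all 6 libraries. Among 9 B cell genes 6 were negative and 3 positive (median -0.44). The antigen receptor chain gene Cd79b was at log2 -0.54, whereas Cd37 (0.65) and Fcrla (0.54) went the other way. The B cell sums overlapped between strains at 43.7 to 45.3 and 34.2 to 47.1 CPM. Of 21 genes of cytotoxic cells in the files 3 were tested, all negative in unstressed rats (median -0.15). After restraint they were positive, Tbx21 at log2 1.67 (edgeR adjusted p = 0.349), Klrk1 at 0.59 and Prf1 at 0.59. The 8 neutrophil genes were centred on 0.06, with the protease gene Mmp9 the most positive at 0.69.

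Alox15 and Siglec5, from the list of eosinophil, basophil and mast cell genes, were called lower in WKY. Alox15, a lipoxygenase that makes lipid mediators, measured 144, 156 and 159 CPM in F344 and 44.6, 51.0 and 27.3 CPM in WKY. The highest WKY library was far below the lowest F344 library, and the log2 difference was -1.90 (SE 0.321, edgeR adjusted p = 0.000482). Siglec5, a sialic acid receptor of myeloid cells, was seen in 57 reads in F344 as a whole and in 2 reads in WKY, which is 20.6 times more in F344 after scaling (counting interval at 95% from 5.45 to 174; edgeR adjusted p = 0.000836). Both calls held in all 6 leave-outs. Of the 17 genes of that list found in the files, these 2 alone had enough counts to be tested. The granule protein genes that define eosinophils were near 0 and did not lean to F344: Prg2 had 0 counts in F344 and 14 in WKY, and Epx 1 and 7. Cpa3, Fcer1a, Mcpt10 and Il4 had 0 counts in all 6 libraries. Alox15 is also expressed in reticulocytes, where it takes part in the clearance of organelles, and the source of its transcripts was not tested.

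Platelet genes leaned to WKY without a call. Of 16 tested, 14 were positive, with a median of 0.58. Their sum over 23 genes was 165 to 174 CPM in F344 and 177, 298 and 283 CPM in WKY replicates 1, 2 and 3, so that replicate 1 was close to F344. Thbs1, the matrix glycoprotein thrombospondin of platelet granules, measured 13.3, 11.9 and 8.32 CPM against 17.8, 36.2 and 24.0 CPM (log2 1.20, edgeR adjusted p = 0.0583). The tetraspanin Cd9 (log2 1.13, 0.0900), the chemokine Pf4 (0.90, 0.211) and the integrin Itgb3 (0.75, 0.341) were separate too, and the von Willebrand factor receptor gene Gp1ba went the other way at -1.01 (0.394). Pear1, a platelet aggregation receptor outside that list, was called higher, with 0.807, 0.341 and 1.42 CPM in F344 and 4.08, 5.67 and 3.94 CPM in WKY (edgeR: log2 difference 2.25 with SE 0.581, adjusted p = 0.0344). The Pear1 call ended without any 1 of the 6 libraries (stressed F344 replicate 1, 2 or 3, or stressed WKY replicate 1, 2 or 3; 0.0563 to 0.184), and also with no low count filter, with limma-voom and with replicate numbers as a block (highest 0.0924).

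Red cell genes as a list lay close to 0. Of 27 tested, 18 were positive and 9 negative, with a median of 0.12, and the sums overlapped at 1748 to 1915 CPM in F344 and 1671 to 2442 CPM in WKY. The anion exchanger Slc4a1 (log2 0.25) and the heme synthesis enzyme Alas2 (-0.16) lay near 0, and the mitochondrial iron importer Slc25a37 was the most positive (0.91, edgeR adjusted p = 0.187). Rhd was called lower against this background. Rhd, the Rhesus antigen of the red cell membrane, measured 13.1, 17.8 and 10.1 CPM against 4.33, 4.80 and 5.91 CPM (log2 -1.43, SE 0.358, edgeR adjusted p = 0.0263). The strains did not overlap. The Rhd call ended without stressed F344 replicate 1 or 2 or stressed WKY replicate 1 or 2 (0.0866 to 0.229) and in DESeq2 (0.0573).

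One of the tested beta globin genes was called and the one with the most counts was not. Hbb-b1 measured 1374, 2282 and 1892 CPM in F344 and 448, 569 and 524 CPM in WKY, with no overlap (log2 -1.85, SE 0.342, edgeR adjusted p = 0.00120), and passed in all leave-outs. Hbb measured 23920, 39474 and 32575 CPM against 34508, 37136 and 36942 CPM (log2 0.18, adjusted p = 0.910). The other tested globins were LOC689064 at log2 0.50, LOC287167 at 0.34, LOC100134871 at 0.32 and Hba1 at -1.12, none of them called. Globin genes are near-identical copies, so the split of reads between Hbb-b1 and its neighbours is uncertain. Summed over 11 globin genes the level was 29453 to 48753 CPM in F344 and 41704 to 45791 CPM in WKY, ranges that overlapped.

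The largest difference of all was in Park2, the ubiquitin ligase parkin, which tags damaged mitochondria for removal. It measured 21.8, 19.5 and 14.6 CPM in F344 and 0, 0 and 0.329 CPM in WKY. In reads this was 237 in F344 and 1 in WKY, or 171 times more in F344 after scaling (counting interval at 95% from 30.5 to 6796; log2 -6.98, SE 0.668, edgeR adjusted p = 4.78e-09). The same contrast stood in unstressed rats, at 9.10, 5.48 and 18.3 CPM against 0, 0.328 and 0 CPM. Park2 is a long gene that overlaps 5 other loci in RefSeq, and which of its exons held the reads was not analysed here. Of the 15 tested genes of the ubiquitin list of red cell maturation, 6 were positive and 9 negative (median -0.22). Park2 alone was called, where 0.647% of all tested genes were called lower. The polyubiquitin gene Ubb averaged 1300 and 987 CPM (log2 -0.40, adjusted p = 0.720).

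Plekhb1, a membrane protein with a pleckstrin homology domain, was next in size. It measured 21.6, 19.8 and 17.9 CPM in F344 and 0, 0.436 and 1.97 CPM in WKY (edgeR: log2 difference -4.62 with SE 0.513, adjusted p = 1.23e-07). WKY replicate 3 alone stood above 1 CPM, and all WKY libraries were far below F344. The call held in every alternative. Plekhb1 overlaps Rab6a in RefSeq, and counts of overlapping genes are uncertain because the strand setting of the counting is not given. Another RefSeq gene overlapped 13 of the 36 called genes (36.1%) and 1200 of the 2749 tested genes that were matched (43.7%).

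**Figure D3:**
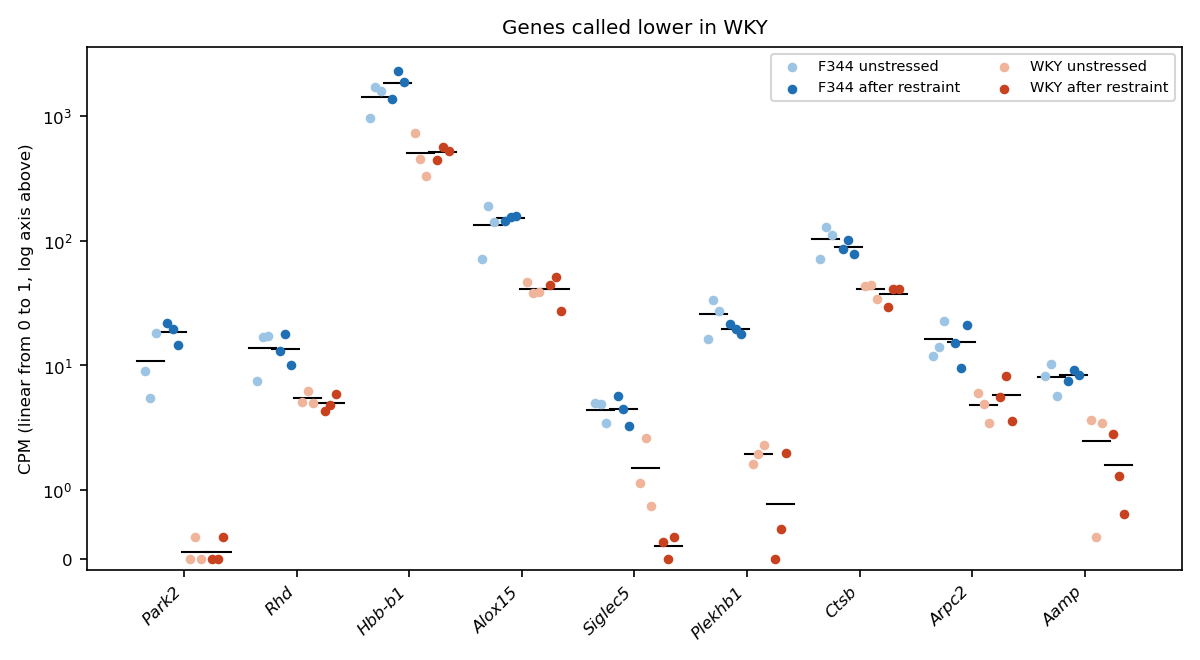
Level in CPM (linear from 0 to 1, log above) of 9 of the genes called lower in WKY after restraint, 1 point per library and a bar at each group's mean. After restraint the WKY points lie below the F344 points for every gene, with Park2 at 0 to 0.329 against 14.6 to 21.8 CPM and Hbb-b1 at 448 to 569 against 1374 to 2282 CPM.

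Iron and lipid genes gave further calls. Slc40a1, the iron exporter ferroportin, measured 3.84, 6.83 and 8.52 CPM in F344 and 13.2, 17.9 and 19.7 CPM in WKY (edgeR: log2 difference 1.40 with SE 0.344, adjusted p = 0.0211). Plin2, which coats lipid droplets, measured 0.807, 0.683 and 0.609 CPM against 5.86, 2.62 and 5.91 CPM (log2 2.74, SE 0.559, edgeR adjusted p = 0.00448). The groups were separate for both genes. Plin2 passed in every alternative in which it was tested. Slc40a1 missed the threshold without stressed F344 replicate 1 or 2 or stressed WKY replicate 2 or 3 (0.0663 to 0.263) and with no low count filter (0.109).

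Of 15 tested lysosomal enzyme genes 11 were positive, with a median of 0.04. Among them 1 was called lower, where 0.647% of all tested genes were. Ctsb, the protease cathepsin B, was lower in WKY, with 85.2, 102 and 78.1 CPM in F344 and 29.3, 41.4 and 40.7 CPM in WKY (edgeR: log2 difference -1.25 with SE 0.291, adjusted p = 0.0147). The groups lay far apart in these 6 libraries, yet the call ended without stressed F344 replicate 1 or 2 or stressed WKY replicate 1 (0.0660 to 0.135). The saposin precursor Psap went the other way, averaging 21.5 and 32.6 CPM (log2 0.60, adjusted p = 0.442), as did the acid lipase Lipa (0.98, 0.398).

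Ribosomal protein genes split. Of 75 tested, 42 were positive and 33 negative, with a median of 0.11. Among them 1 was called higher and 2 lower, where 0.647% of all tested genes were called in each direction. Rpl35 measured 21.4, 28.7 and 17.0 CPM in F344 and 4.84, 6.54 and 5.91 CPM in WKY (edgeR: log2 difference -1.96 with SE 0.342, adjusted p = 0.000632). Rpl38 measured 6.66, 8.19 and 5.68 CPM against 1.27, 0 and 0.657 CPM (log2 -3.13, SE 0.589, edgeR adjusted p = 0.00143). Both are proteins of the large subunit, both were separate between strains and both passed in all leave-outs, although Rpl38 missed the threshold in limma-voom (0.0700). Ribosomal protein genes have many processed copies in the genome, so single members are uncertain. Eif1, a translation initiation factor, was lower, averaging 26.3 and 9.91 CPM (log2 -1.41, edgeR adjusted p = 0.0204), and missed the threshold without stressed F344 replicate 2 or 3 or stressed WKY replicate 1 or 2 (0.0617 to 0.164).

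Oxidative phosphorylation genes leaned to F344, with 10 of 12 negative and a median of -0.34. Among them 1 was called lower, where 0.647% of all tested genes were. Ndufa1, a subunit of respiratory complex I, was called, at 8.68, 12.3 and 9.74 CPM in F344 and 1.27, 4.36 and 2.96 CPM in WKY (edgeR: log2 difference -1.90 with SE 0.464, adjusted p = 0.0211). Uqcrh, of complex III, averaged 11.6 and 4.51 CPM (log2 -1.29, adjusted p = 0.0799). Both genes were separate between strains. The Ndufa1 call ended without stressed F344 replicate 1, 2 or 3 or stressed WKY replicate 1 (0.0568 to 0.203) and in DESeq2 (0.0582). Antioxidant enzymes leaned the other way, with 11 of 14 positive, a median of 0.37 and 0 calls. Txnrd1 was at log2 1.5 (adjusted p = 0.266) and the glutathione peroxidase gene Gpx1 averaged 55.6 and 93.7 CPM (log2 0.76, 0.384). In unstressed rats the median of the 14 antioxidant genes was -0.15.

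The remaining called genes belonged to none of the lists. Arpc2, a subunit of the complex that nucleates branched actin, measured 15.1, 9.56 and 21.3 CPM in F344 and 5.60, 8.29 and 3.61 CPM in WKY (log2 -1.44, edgeR adjusted p = 0.0283). Aamp, its close neighbour with 1 gene between them, measured 7.47, 9.22 and 8.32 CPM against 2.80, 1.31 and 0.657 CPM (log2 -2.27, 0.00673). Both were lower in WKY; the Aamp call held in all leave-outs but not in limma-voom (0.0586), and that of Arpc2 ended without stressed F344 replicate 1 or 3 or stressed WKY replicate 1 or 3 (0.0916 to 0.373) and in DESeq2 (0.0596). Rem2, a small GTPase that inhibits calcium channels, measured 13.9, 30.4 and 10.3 CPM against 4.08, 6.11 and 4.60 CPM (log2 -1.87, 0.0169). Its F344 replicate 2 stood high, and the call ended without that library or stressed WKY replicate 1 (0.106 to 0.290). Akr7a3, an aldehyde reductase, measured 5.85, 6.49 and 3.04 CPM against 0.255, 1.74 and 0.657 CPM (log2 -2.64, 0.00972); it missed the threshold without stressed F344 replicate 1 or 2 or stressed WKY replicate 1 (0.0735 to 0.109) and in limma-voom (0.124).

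Higher in WKY among these were Supt5h, Mpst and RGD1310507. Supt5h, a transcription elongation factor, measured 6.06, 4.78 and 6.49 CPM in F344 and 12.7, 20.5 and 16.1 CPM in WKY (log2 1.47, edgeR adjusted p = 0.0113). Mpst, a sulfurtransferase that makes hydrogen sulfide, measured 11.5, 14.7 and 8.32 CPM against 26.2, 62.8 and 14.8 CPM (log2 1.58, 0.0211). The highest F344 library of Mpst nearly met the lowest WKY library, and without stressed WKY replicate 2 its log2 difference was 0.87. RGD1310507, named Inhca in RefSeq, an inhibitor of carbonic anhydrase, measured 1.61, 2.39 and 2.03 CPM against 7.90, 6.11 and 6.24 CPM (log2 1.77, 0.0211). The Mpst call ended without stressed F344 replicate 1 or 3 or stressed WKY replicate 2 (0.1 to 0.387) and in limma-voom (0.0598). That of Supt5h ended without stressed F344 replicate 1, 2 or 3 or stressed WKY replicate 2 (0.0532 to 0.103), and that of RGD1310507 without stressed F344 replicate 1, 2 or 3 or stressed WKY replicate 1 (0.0735 to 0.175); both ended with no low count filter (0.0689 and 0.109).

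Lists tied to the stress response showed no call. Of 14 tested glucocorticoid receptor and target genes, 7 were positive and 7 negative, with a median of 0.09. Fkbp5, a feedback inhibitor of the receptor, measured 3.43, 7.51 and 4.06 CPM in F344 and 4.08, 0.872 and 2.30 CPM in WKY (log2 -0.88, edgeR adjusted p = 0.511). Tsc22d3, a classical target, was at log2 0.56 (0.554), Per1 at -0.23 (0.910), the receptor gene Nr3c1 at 0.24 (0.882), Cebpb at 1.28 (0.257) and Anxa1 at 1.00 (0.349). The 9 inflammatory genes of the NF-kB pathway had a median of 0.02, with Il1b at 0.42 (0.713) and Tlr2 at 1.13 (0.532). Npy, the neuropeptide Y gene, averaged 76.4 and 66.3 CPM (log2 -0.21, 0.882). Proteasome genes (5 of 8 positive, median 0.26) and genes of the unfolded protein response (7 of 12, median 0.08) had no call either, and neither had cell cycle (6 of 9, median 0.21) or brain genes (2 of 5, median -0.21).

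**Figure D4:**
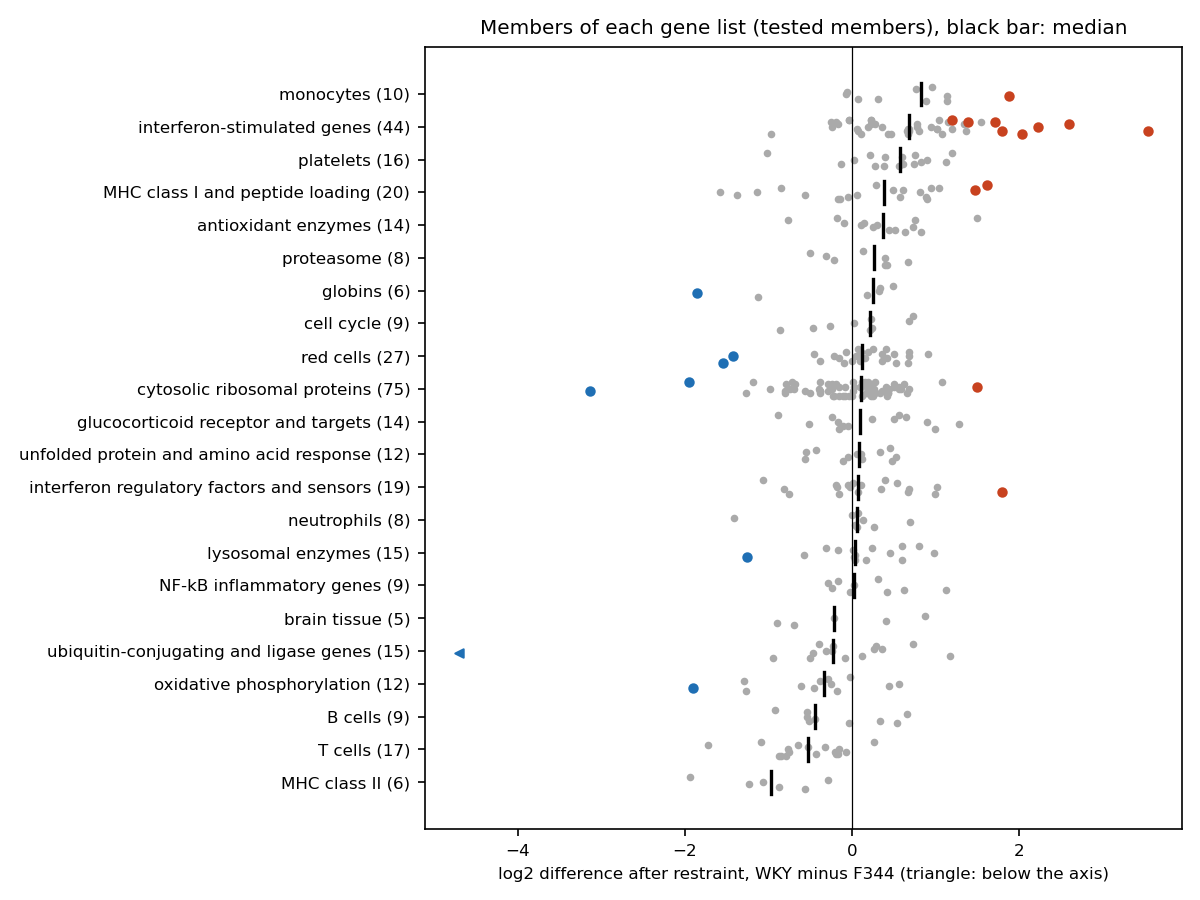
Log2 difference after restraint (WKY minus F344) of each tested member, by gene list, with the number tested in brackets; coloured points passed the test and the black bar is the median. Among these lists of at least 5 tested genes, monocyte (0.83), interferon-stimulated (0.68) and platelet (0.58) lists have the highest medians, and T cell (-0.52) and MHC class II (-0.96) lists the lowest.

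The strain difference after restraint was set beside that in unstressed rats, which rests on 6 other libraries and shares only the fitted spread and scaling. Without stress 19 genes differed (0.683%), 9 higher (0.324%) and 10 lower (0.360%) in WKY. Unstressed F344 replicates 2 and 3 stood apart on the first principal component (21.1 and 40.5, against -14.3 to 2.22 for the rest). These 2 libraries held 195564 and 90796 counts outside the 3 most abundant features. In them 1 read added 0.609 and 1.14 CPM, against 0.202 to 0.436 CPM in the stressed libraries. Unstressed F344 levels of a few CPM therefore rested on very few reads, which limits the unstressed comparison. Leaving out both kept only replicate 1 in that group, so no count of calls is given for that alternative. A fit of the 6 unstressed libraries alone called 9 genes without stress. Of the 36 genes called after restraint 35 had the same sign without stress, against 60.0% of all tested genes and 59.5% of the genes not called after restraint. Of the 36, 13 were called under both treatments, which is also 13 of the 19 called without stress. The groups were separate without stress for 27 of the 36, against 14.0% of all genes. The median of the 18 higher genes was 1.58 without stress against 1.74 after restraint, and that of the 18 lower genes -1.52 against -1.90. The 36 were chosen by their size after restraint, so these medians are a description.

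Single interferon genes were set side by side in both treatments, without a test of likeness. Irf7 measured 56.0, 59.7 and 50.3 CPM in unstressed F344 and 271, 273 and 219 CPM in unstressed WKY (log2 2.19, edgeR adjusted p = 8.96e-06). Among genes called after restraint, the log2 difference without stress and after restraint was 3.74 and 3.54 for Oas1a, 2.22 and 2.22 for Isg15, and 1.72 and 1.61 for the class I gene RT1-S3. Interferon list members that were not called included Oasl (2.70 and 0.23), Oas3 (1.90 and 0.95), Parp9 (-0.06 and 1.08) and Zbp1 (0.42 and -0.97), with wider gaps between treatments. The interferon list's median was 0.65 without stress and 0.68 after restraint, with 36 and 37 of 44 members positive. For the class I list the median was 1.09 without stress (16 of 20 positive) and 0.39 after restraint (12 of 20). Larger after restraint were Siglec5 (log2 -1.59 and -4.14) and Rem2 (-0.33 and -1.87), but the difference between treatments did not pass in the edgeR interaction test (adjusted p = 0.993 and 0.993).

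**Figure D5:**
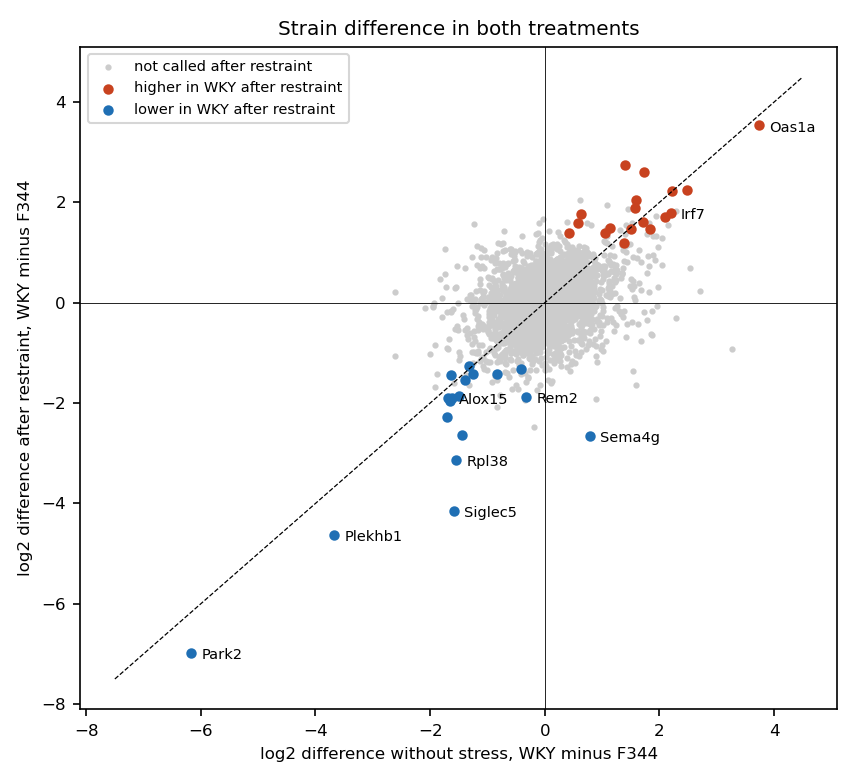
Log2 difference between strains (WKY minus F344) after restraint against that without stress, 1 point per tested gene, with a dashed line of equality. Of the 36 coloured genes 35 lie in the quadrants of equal sign; Sema4g, at 0.78 without stress and -2.65 after restraint, is the exception.

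Sema4g, a transmembrane semaphorin, was the called gene whose sign differed. It measured 0.552, 9.14 and 2.29 CPM in unstressed F344, which was 2, 15 and 2 reads. In unstressed WKY it measured 4.14, 5.24 and 9.29 CPM, and the groups overlapped. After restraint it measured 4.04, 11.9 and 9.33 CPM in F344 and 1.53, 0.436 and 1.64 CPM in WKY, groups that did not (log2 -2.65, SE 0.588, edgeR adjusted p = 0.00972). The test of the difference between the 2 strain differences gave log2 -3.43 (SE 0.835, edgeR adjusted p = 0.200). That test called 0 of 2781 genes (0%) by edgeR, DESeq2 and limma-voom, with 106 at an unadjusted p under 0.05 in edgeR. The call after restraint ended without stressed F344 replicate 2 or 3 or stressed WKY replicate 2 (0.0522 to 0.0771) and in limma-voom (0.171). The edgeR interaction passed for Sema4g with no low count filter (adjusted p = 0.000492). Leaving out unstressed F344 replicates 2 and 3 kept only replicate 1 in that group. The interaction difference for Sema4g was then log2 -6.07.

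Sav1, a scaffold of the Hippo pathway, and Foxe1, a forkhead factor, had the smallest interaction p-values. Sav1 measured 2.30, 31.1 and 15.5 CPM in unstressed WKY against 4.58, 2.18 and 3.61 CPM after restraint. In F344 it measured 1.93, 0 and 3.43 CPM without stress (7, 0 and 3 reads) against 7.07, 7.85 and 5.88 CPM. The difference was log2 -4.20 (edgeR interaction test, adjusted p = 0.0699). Foxe1 measured 2.76, 36.4 and 19.7 CPM in unstressed WKY against 5.60, 3.05 and 2.30 CPM after restraint (difference log2 -3.23, 0.128). Unstressed WKY replicates 2 and 3 were high for both genes and replicate 1 was not. Both passed with no low count filter (Sav1 2.15e-07, Foxe1 2.39e-06) and without stressed WKY replicate 1 (0.0498), and Sav1 without stressed WKY replicate 3 (0.0461). In the positive direction the smallest p-values were those of Tmpo, a nuclear envelope protein (2.30, 0.993), Rpl27 (2.84, 0.993) and Ap1b1, a clathrin adaptor subunit (2.19, 0.993).

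The genes next to the threshold give its place. Just inside lay Mx1 (edgeR adjusted p = 0.0431) and Pear1 (0.0344), and just outside Atg7, an autophagy enzyme (log2 1.59, 0.0506), R3hdm4 (-1.12, 0.0506) and the glycosyltransferase gene Galnt10 (-1.19, 0.0506). Galnt10 measured 31.1, 35.2 and 23.1 CPM in F344 and 8.92, 20.1 and 10.8 CPM in WKY, as separate as many called genes. Of the 36 called, 12 averaged under 5 CPM, 7 higher and 5 lower, and rested on few counts per library.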

How the data were processed

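The authors deposited whole-number read counts per gene for each library, not normalized. Per the submitters' processing notes, cutadapt 1.14, TopHat2 2.1.0, Cufflinks 2.2.1 and build rn6 were used, with no role stated; which program counted the reads, with which annotation and strand setting, is not given in the sources used here. Whether reads of both strains aligned equally well was not tested. The 5 rows that name no gene took 80.9% to 86.3% of counts in the 6 libraries compared (ambiguous reads 78.3% to 83.3%) and were left out.

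Counts of all 12 libraries entered 1 edgeR 4.0.16 quasi-likelihood fit of 4 group means (R 4.3.3, TMM, filterByExpr minimum count 10), which tested 2781 of 17337 genes; p-values were adjusted by Benjamini-Hochberg over those genes, and called under 0.05. CPM carry the TMM scaling. DESeq2 1.42.0, limma-voom (limma 3.58.1), other filters, scalings and leave-outs were alternatives. Intervals cover counting error only. Named were all called genes averaging at least 5 CPM with an informative symbol, called genes under 5 CPM, up to 4 members per direction of a list, 8 fixed genes (Irf7, Fkbp5, Tsc22d3, Nr3c1, Per1, Il1b, Npy, Plekhb1) and the 3 smallest interaction p-values per direction; other genes named (such as Csf1r, Cd74, B2m, Ifit3 and the 3 just outside the threshold) were chosen after their values were seen. Some called genes and list members are not reported here. Members, gene lists and tests were chosen with earlier results of these data known. RefSeq tables of GRCr8 matched 16919 genes and gave promoters, names and neighbours. Same-numbered libraries of the strains did not deviate together (correlations -0.05, 0.06 and 0.03). No pairing by number was seen, and 3 libraries per group cannot exclude one.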

Additional observations from a re-analysis of the deposited data

How the results depend on the processing

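The count of 36 genes after restraint ranged from 18 to 40 when a library was left out, with 7 to 18 higher and 9 to 22 lower; leaving out a stressed F344 library lowered it most. Under the other settings it was 35 to 50, the highest in a fit of these 6 libraries alone. With the replicate number as a block 42 genes passed, 21 in each direction. No pairing by these numbers was seen, and stressed F344 replicate 2 alone correlated best with its own number. The interaction count of 0 became 3 with no low count filter and 0 to 2 in leave-outs. Leaving out unstressed F344 replicates 2 and 3 was an alternative chosen after seeing the data. It kept only replicate 1 in that group, so its counts of calls are not given. The 19 genes without stress became 9 in a fit of the 6 unstressed libraries alone. The causes were not tested. Having no filter moved the median of the genes tested in both by -0.10 on the log2 scale. The medians of the interferon regulatory factor, red cell, globin, glucocorticoid, NF-kB, proteasome, lysosomal, unfolded protein, ribosomal, cell cycle and brain lists crossed 0 in at least 1 alternative, so they have no settled direction. Depth limits levels under about 5 CPM, and 3 libraries per group limit every test.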
